A study of Mus musculus with 20 samples.

Results

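The 44 genes described here encode lysosomal hydrolases, lysosomal membrane and lipid-handling proteins, and subunits of the vacuolar proton pump (V-ATPase). They were taken by symbol from a list of such genes, and all 44 were found among the 32285 genes listed and passed the filter on low counts. By role, 19 are hydrolases, 10 are membrane, lipid-handling or regulatory genes, 8 belong to the V1 sector of the pump and 7 to its V0 sector or accessory proteins. Their transcripts were measured by bulk RNA sequencing in 20 tumours of B16F10, an established mouse melanoma line, grown in wild-type, immunocompetent C57BL/6 mice. Injections began when tumours had reached about 100 mm3, and tumours were excised on day 16. There were 4 groups of 5 tumours: control IgG, propafenone, anti-PD-1, and propafenone together with anti-PD-1, called the combination below. Propafenone, an antiarrhythmic drug, acts on sodium channels of the heart. Anti-PD-1 antibodies block PD-1, a receptor that restrains T cells. By the design text, animals that did not get anti-PD-1 got IgG, so the propafenone group may carry IgG as well. The animals' ages and doses, and whether each tumour came from its own animal, are not stated in the labels, so p-values measure the spread between these tumours.

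Lysosomes degrade protein, glycan and lipid with acid hydrolases. The V-ATPase acidifies their lumen: its cytosolic V1 sector hydrolyses ATP and turns a rotor, and its membrane sector V0 moves protons through a ring of proteolipid subunits. TFEB, a transcription factor of the same family as the melanocyte factor MITF, switches on many lysosomal genes through an E-box-like promoter element built around CACGTG. Weak bases with a lipophilic part, such as propafenone, can be trapped in acidic compartments. Macrophages are rich in lysosomal proteases, and melanocytes build melanosomes, organelles related to lysosomes, so both cell types can be sources of these transcripts in a tumour.

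The core of that element is shown first because it is a sequence that 12 of these genes share. RefSeq promoter windows on GRCm38.p6, running from 250 bases before to 50 bases after the gene start, were matched by symbol for 36 of the 44 genes; Ctsb, Ctsh, Npc1, Asah1, Atp6v1b2, Atp6v1c1, Atp6v1g1 and Atp6v1h had no match. CACGTG, which reads the same on both strands, occurred in 12 of the 36 windows (33.3%), against 8.09% of 27025 genes with a window. Here and for the longer forms, the share of all genes was not matched for expression or base content. The longer TCACGTG, sought on both strands and always overlapping CACGTG, occurred in 11 of 36 (30.6%), against 4.29% of all genes. The longest form sought, the palindrome with GT before the core and AC after it, occurred in 0 of 36, against 0.37% of all genes. Lamp1 is shown for its 4 copies of the core within the 80 bases just before its start, and the next 5 genes so that each of the 4 roles has an example. Capitals mark CACGTG.
Lamp1, chr8:13159081-13159160 (plus strand): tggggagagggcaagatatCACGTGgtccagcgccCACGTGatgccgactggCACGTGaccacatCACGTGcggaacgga
Ctsd, chr7:142387908-142387937 (minus strand): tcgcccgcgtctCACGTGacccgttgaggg
Gaa, chr11:119267811-119267840 (plus strand): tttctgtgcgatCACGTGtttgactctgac
Mcoln1, chr8:3500436-3500465 (plus strand): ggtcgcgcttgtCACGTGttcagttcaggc
Atp6v1a, chr16:44139373-44139402 (minus strand): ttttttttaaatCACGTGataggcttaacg
Atp6v0d1, chr8:105566050-105566079 (minus strand): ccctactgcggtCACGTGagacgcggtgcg
The other genes with the core were Atp6v0b, Atp6v0e, Ctsa, Ctsl, Gla and Lgmn, and of the 12 it was Ctsl alone that lacked the longer form. By role, the core was found in 6 of 16 hydrolases, 2 of 9 membrane genes, 1 of 4 V1 genes and 3 of 7 V0 genes with a window. A match describes these letters only and says nothing of a factor's presence there.

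Library totals lay between 56 and 64.5 M counts (M, mega), and the 44 genes held 1.04% to 1.35% of each. The lowest mean count among them was 1173 (Mcoln1) and the highest 71829 (Ctsd). Melanocyte markers were high in every tumour, with summed levels of 14943 to 24408 CPM (counts relative to the scaled library size) and none of the 10 markers at 0 in any group. The 14 macrophage markers summed to medians of 49.8 CPM in IgG tumours (35 to 183), 125 with propafenone (57.6 to 199), 206 with anti-PD-1 (121 to 223) and 350.3 with the combination (204 to 472), again with none at 0 throughout a group. T cell markers had medians of 1.69, 3.08, 2.62 and 5.95 CPM in the same order. Fibroblast markers had medians of 195, 208, 367 and 541 CPM, and skeletal muscle markers 8.64, 57.4, 169 and 413 CPM. Red blood cell markers had medians of 889, 1247, 441 and 328 CPM. In 5 libraries Hbb-bs, an adult haemoglobin chain, exceeded 1000 CPM: IgG 4 and 5, propafenone 4 and 5, and anti-PD-1 2. In bulk tissue, fewer cells of a type and less RNA per cell cannot be told apart.

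In IgG tumours the genes spanned a wide range of abundance. On the authors' TPM scale, which divides by transcript length and so lets genes be compared, the proteolipid subunit Atp6v0c stood highest at 1444 ± 83.4 TPM (mean ± SD, n = 5). It was followed by the tetraspanin Cd63 at 1177 ± 101 and the aspartic protease cathepsin D, Ctsd, at 1053 ± 114, which overlap within their SD. Cathepsin Z (Ctsz) stood at 838 ± 31.5 TPM, and Psap, the precursor of the saposins that help hydrolases reach sphingolipids, at 559.5 ± 53.9. At the low end were the cysteine protease Ctss at 22.8 ± 23.1 TPM, the lysosomal cation channel Mcoln1 at 19.2 ± 2.2 and the alpha-galactosidase Gla at 14.6 ± 2.11. Ctss alone among these had an SD as large as its mean.

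Between tumours of 1 group the 44 genes were steady. Their median within-group SD was 0.153 on the log2 CPM scale, against 0.244 over all 15875 genes tested. This comparison was not matched for abundance. The lowest mean count among the 44 was 1173, while the genes tested include Tfec, at 0.147 to 0.484 CPM in IgG tumours. The tightest of the 44 were Atp6v1e1 (0.0738), Lamp2 (0.0846) and Lamp1 (0.0864). The loosest were the proteases Ctss (0.937) and Ctsh (0.395) and the hexosaminidase subunit Hexa (0.353).

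**Figure D1:**
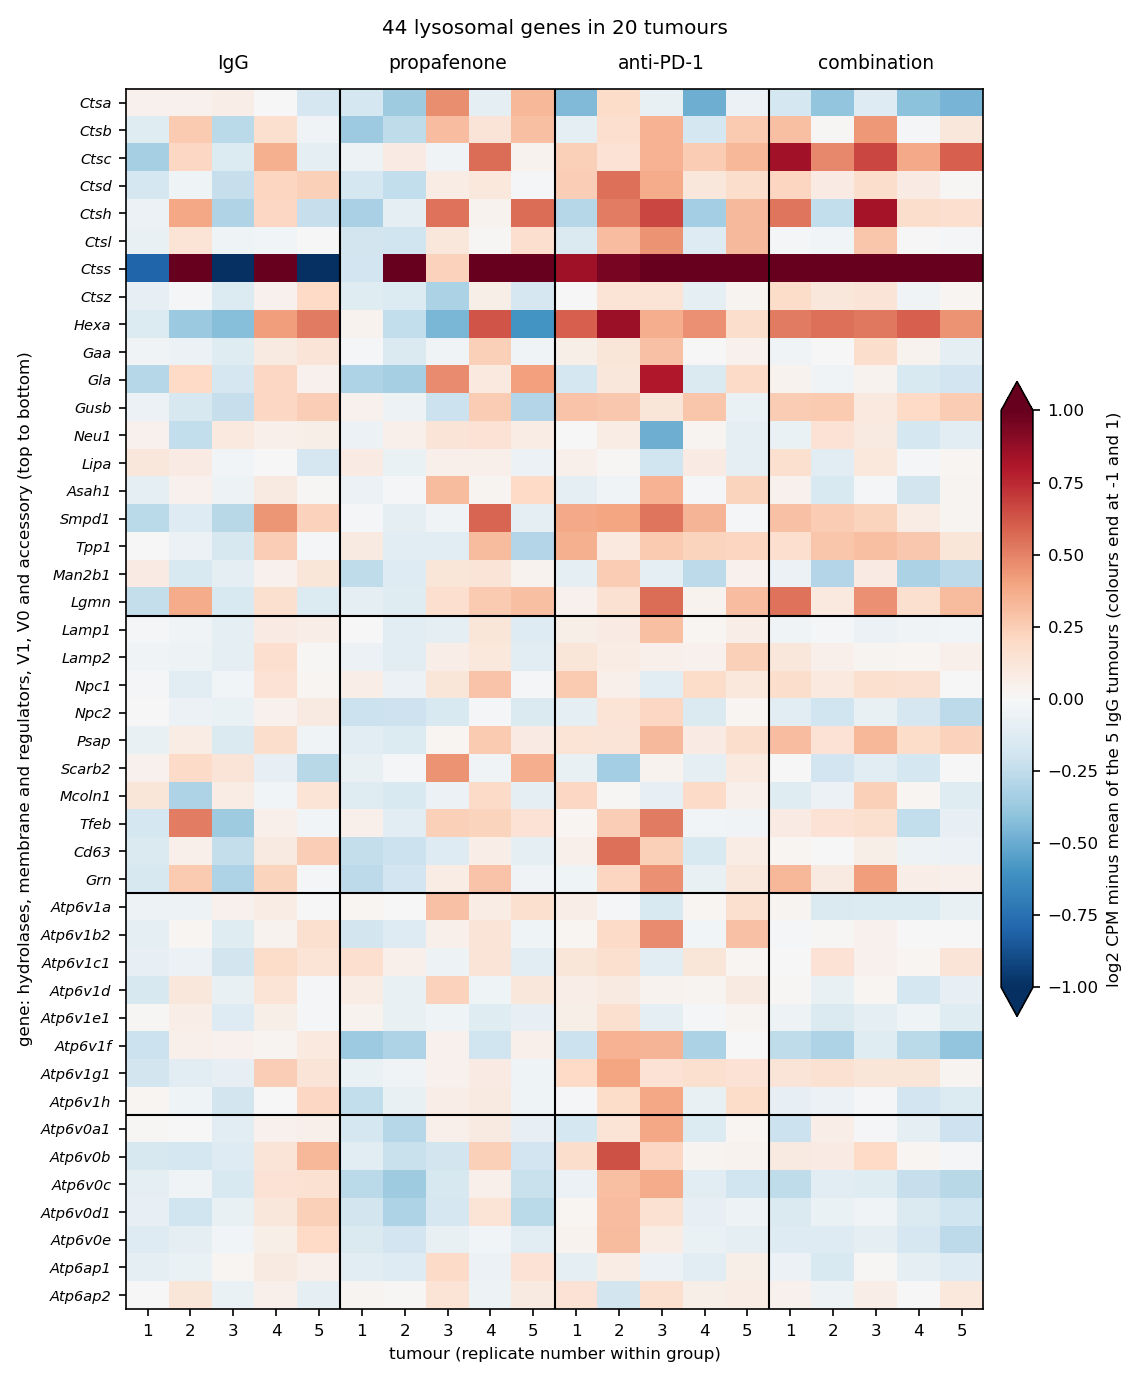
Log2 CPM of each of the 44 genes (rows, in the 4 roles divided by black lines) in each of the 20 tumours (columns, 5 per group), minus the gene's mean over the 5 IgG tumours, with colours ending at -1 and 1. Most rows stay pale in all groups, and Ctss runs past the colour range in both directions. Ctsc lies above its IgG mean in all 5 anti-PD-1 and all 5 combination tumours.

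With propafenone alone the lysosomal genes stayed close to their control levels. None of the 44 passed the threshold of an adjusted p under 0.05 (edgeR quasi-likelihood test, Benjamini-Hochberg over 15875 genes), and DESeq2 called 0 of them too. Over all genes percent called was 0, and DESeq2 called 3 genes. At an unadjusted p under 0.05 there was 1 of 44 (2.27%), Npc2, against 754 genes (4.75%) in all. The 95% interval of the log2 change lay within 1.5-fold either way for 42 of 44 genes, against 61.1% of all genes. Such shares of all genes, here and below, were not matched for abundance. The exceptions among the 44 were Ctss (-0.73 to 1.66) and Ctsh (-0.31 to 0.64), whose intervals were wide. The 3 smallest p-values belonged to Npc2 (log2 change -0.15 ± 0.0662 SE), which binds cholesterol in the lumen, to Atp6v0c (-0.19 ± 0.102) and to Ctsz (-0.14 ± 0.0741). All 3 had an adjusted p of 0.913 (edgeR) and did not pass. Changes over the 44 ran from -0.19 (Atp6v0c) to 0.46 (Ctss), with a median of -0.012 beside 0.0036 over all genes. The direction of that median turned to 0.019 when library totals replaced TMM scaling. Smpd1, the acid sphingomyelinase, had a change of 0.066 ± 0.145 (interval -0.24 to 0.37).

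With anti-PD-1 alone most of the genes had values slightly above IgG, and none passed by edgeR, DESeq2 or limma on TPM. The change was above 0 for 38 of 44 genes, against 49.7% of all genes, with a median change of 0.10 beside -0.0012 over all genes. The count was 38 also with DESeq2 size factors and with library totals, and between 35 and 40 when single tumours were left out. Percent called over all genes at an adjusted p under 0.05 was 0, and DESeq2 called 21 genes. Unadjusted, 7 of 44 (15.9%) had a p under 0.05, all of them higher, against 4.01% of all genes in that direction. They were Ctsd, Atp6v1g1, Tpp1, Atp6v1b2, Psap, Hexa and Smpd1. The 3 smallest p-values were those of Ctsd (0.29 ± 0.0991, adjusted p = 0.497), Atp6v1g1 (0.20 ± 0.0735, adjusted p = 0.515) and Tpp1 (0.23 ± 0.0926, adjusted p = 0.595, edgeR for all). All 8 V1 genes, 6 of 7 V0 genes, 9 of 10 membrane genes and 15 of 19 hydrolases had a positive change, with role medians of 0.058, 0.060, 0.11 and 0.18. For 40 of 44 genes the interval lay within 1.5-fold either way, against 60.6% of all genes, the others being Hexa, Smpd1, Ctss and Ctsh. Median summed melanocyte markers were 17018 CPM in IgG and 20232 CPM in anti-PD-1 tumours, with macrophage medians of 49.8 and 206 CPM. Their part in these values was not tested. Without the 5 libraries rich in Hbb-bs 1 of the 44 passed, Hexa (2.27%), and 13 of 16207 genes passed over the whole table (0.0802%). That fit leaves out IgG 4 and IgG 5, the IgG tumours highest in Hexa (332 and 355 CPM). It also leaves out anti-PD-1 2, the highest of its group (449 CPM), and the part of this was not tested.

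In combination tumours 1 of the 44 genes rose against IgG, the dipeptidyl peptidase Ctsc, and none fell by edgeR or DESeq2, although 4 lower genes had an unadjusted p under 0.05 (9.09%, against 13.4% of all genes). Over all genes 774 were called (4.88%), of which 356 were higher (2.24%) and 418 lower (2.63%). The split was 306 to 217 with DESeq2 size factors and 368 to 112 with library totals. The 1 of 44 (2.27%) is no larger a share than this background. Unadjusted, 10 of 44 (22.7%) had a p under 0.05 against 23.6% of all genes. A change above 0 was found for 23 of 44 genes against 48.2% of all genes. Hydrolases stood on the higher side (14 of 19, median 0.10), V1 genes (3 of 8 higher, median -0.077) and V0 genes (2 of 7, median -0.087) on the lower side, and membrane genes near 0 (4 of 10, median -0.010). These signs held for the hydrolase, V1 and V0 medians with DESeq2 size factors and with library totals, while the membrane median turned to 0.013 and 0.061. On log2(TPM + 1) the pump medians changed sign as well: 7 of 8 V1 genes (median 0.043) and 4 of 7 V0 genes (0.021) were above 0, as were 66.5% of all genes (median 0.078), so the direction of the pump genes against IgG depends on the scale. Over the 44 the median was 0.011 with TMM, 0.035 with DESeq2 size factors and 0.085 with library totals, and library totals moved the median of all genes from -0.012 to 0.059. The interval lay within 1.5-fold for 39 of 44 genes, against 55.4% of all genes, and Ctsc, Ctss, Hexa, Ctsa and Ctsh were the others. The groups did not overlap for Ctsc, which was higher, and Npc2, which was lower (2 of 44, 4.55%, against 11.9% of all genes). Without the 5 Hbb-bs-rich libraries there were 8 calls: Gusb, Tpp1, Smpd1, Hexa, Ctsc, Atp6v0b, Psap and Atp6v1g1 (18.2%), beside 977 over all genes (6.03%). That fit was chosen after seeing the data and leaves out IgG 4 and IgG 5. These were the highest IgG tumours for Gusb, Smpd1, Hexa, Atp6v0b and Atp6v1g1, and IgG 4 was the highest for Tpp1, Ctsc and Psap. The part of this in the 8 calls was not tested. The calls over all genes went with single tumours too, from 774 to 5 without IgG 3 and to 1067 without anti-PD-1 2.

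**Figure D2:**
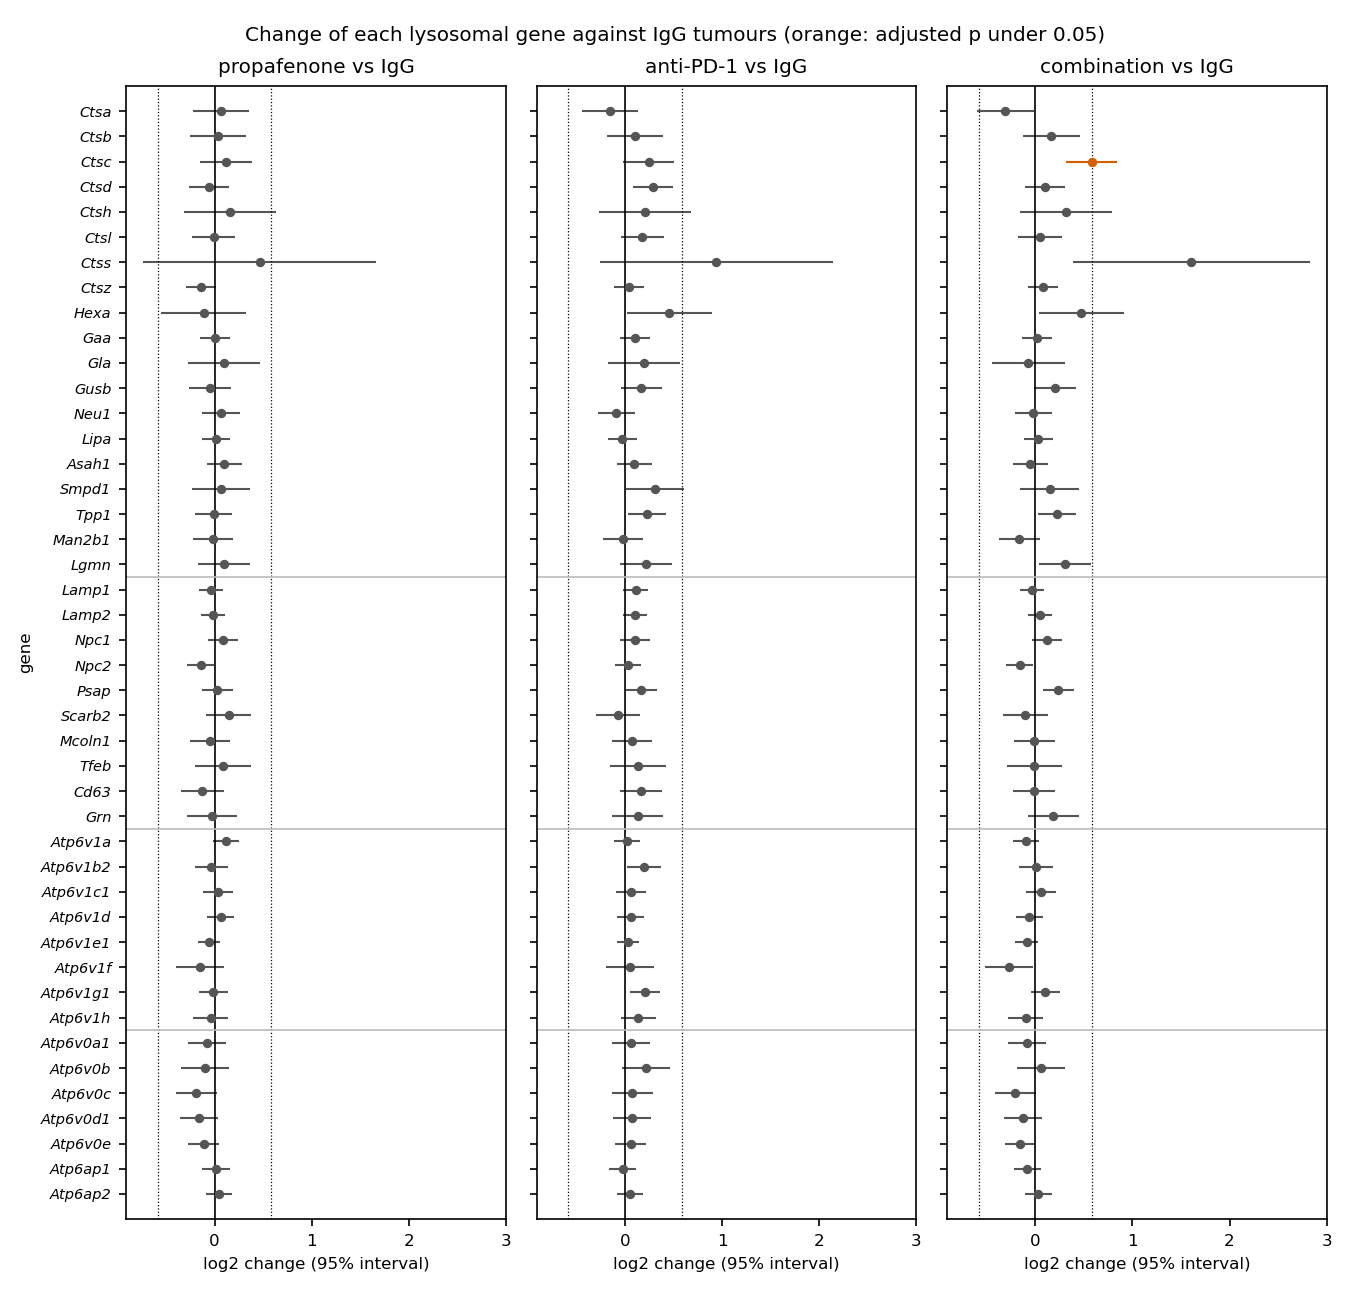
Log2 change against IgG tumours (x axis, all panels on 1 scale) of each of the 44 genes with its 95% interval, for propafenone, anti-PD-1 and the combination, with dotted lines at 1.5-fold either way. Ctsc in the combination panel is the single orange point, and Ctss has the widest intervals.

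Cathepsin C, the protein of Ctsc, removes dipeptides and activates the granule proteases of leukocytes. Its gene (ENSMUSG00000030560) lies at chr7:88278085-88310888 on the plus strand of GRCm38, with no overlapping gene in GENCODE vM21. Ctsc stood at 47.5, 69.2, 54.5, 76.3 and 56 CPM in the IgG tumours, 57.8, 63.4, 58.4, 88.1 and 61.1 with propafenone, 70.5, 66.1, 76.1, 71.3 and 75.4 with anti-PD-1 and 107, 83.6, 95.1, 77.7 and 90.5 with the combination. The 5 combination tumours lay above all IgG and all anti-PD-1 tumours, and overlapped the propafenone group through propafenone 4 at 88.1 CPM. Group means were 60.7 ± 11.7, 65.8 ± 12.7, 71.9 ± 4.05 and 90.8 ± 11.3 CPM (SD, n = 5 each). Against IgG the combination level was 1.5-fold (log2 change 0.58 ± 0.127 SE, interval 0.32 to 0.85, edgeR adjusted p = 0.0221). Against propafenone it was 1.38-fold (0.46 ± 0.127, adjusted p = 0.0458, edgeR). Against anti-PD-1 it was 1.26-fold and did not pass (0.34 ± 0.127, adjusted p = 0.446, edgeR). The call against IgG was lost without IgG 1 (adjusted p = 0.0518), IgG 3 (0.0713), IgG 5 (0.0596), combination 1 (0.0519) or combination 5 (0.0601), with log2 changes of 0.51 to 0.70 over all single left-out tumours. The call against propafenone was lost in 12 of 20 such fits (adjusted p up to 0.166): without IgG 5, propafenone 1, 2, 3 or 5, anti-PD-1 4 or 5, or any 1 of the 5 combination tumours. Beside it, 10 of 14 macrophage markers passed with higher levels in combination tumours (median log2 change 1.75), as did 6 of 10 skeletal muscle and 4 of 8 fibroblast markers, and their part in the Ctsc result was not tested.

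Ctss encodes cathepsin S, a protease of antigen-presenting cells that processes the invariant chain of MHC class II. It stood at 5.74, 38.4, 4.61, 22.2 and 4.48 CPM in the IgG tumours, 8.79, 20.5, 11.8, 38.5 and 24.4 with propafenone, 18.1, 19.4, 38.4, 24.9 and 43.9 with anti-PD-1 and 65.7, 24.3, 53.6, 30.4 and 56.1 with the combination. Within the IgG group 3 tumours lay below 6 CPM while IgG 2 and IgG 4, the tumours with the highest macrophage markers of that group (179 and 183 CPM), lay at 38.4 and 22.2, beside a combination range of 24.3 to 65.7. The change against IgG was 3.05-fold (1.61 ± 0.578, interval 0.39 to 2.82) and did not pass (edgeR adjusted p = 0.104). Without IgG 2 it passed (log2 change 2.31, adjusted p = 0.029). On log2(TPM + 1) with limma it passed as well, at a log2 change of 2.11 and an adjusted p of 0.0266. On the same build, the 250 bases before the starts of Ctsc (60.4% GC) and Ctss (44.8% GC) are shown because these 2 of the 44 genes had the largest changes against IgG. Neither holds CACGTG, and no capitals are marked.
Ctsc, chr7:88277835-88278084 (plus strand): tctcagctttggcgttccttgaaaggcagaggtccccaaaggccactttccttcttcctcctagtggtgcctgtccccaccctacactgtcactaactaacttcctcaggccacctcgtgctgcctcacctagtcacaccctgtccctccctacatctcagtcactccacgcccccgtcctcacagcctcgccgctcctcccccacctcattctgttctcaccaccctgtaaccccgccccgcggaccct
Ctss, chr3:95526536-95526785 (plus strand): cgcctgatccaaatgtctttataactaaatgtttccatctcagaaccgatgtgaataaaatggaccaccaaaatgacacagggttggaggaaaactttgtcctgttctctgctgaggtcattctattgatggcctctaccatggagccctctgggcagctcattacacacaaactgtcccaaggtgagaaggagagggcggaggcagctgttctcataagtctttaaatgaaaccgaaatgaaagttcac

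**Figure D3:**
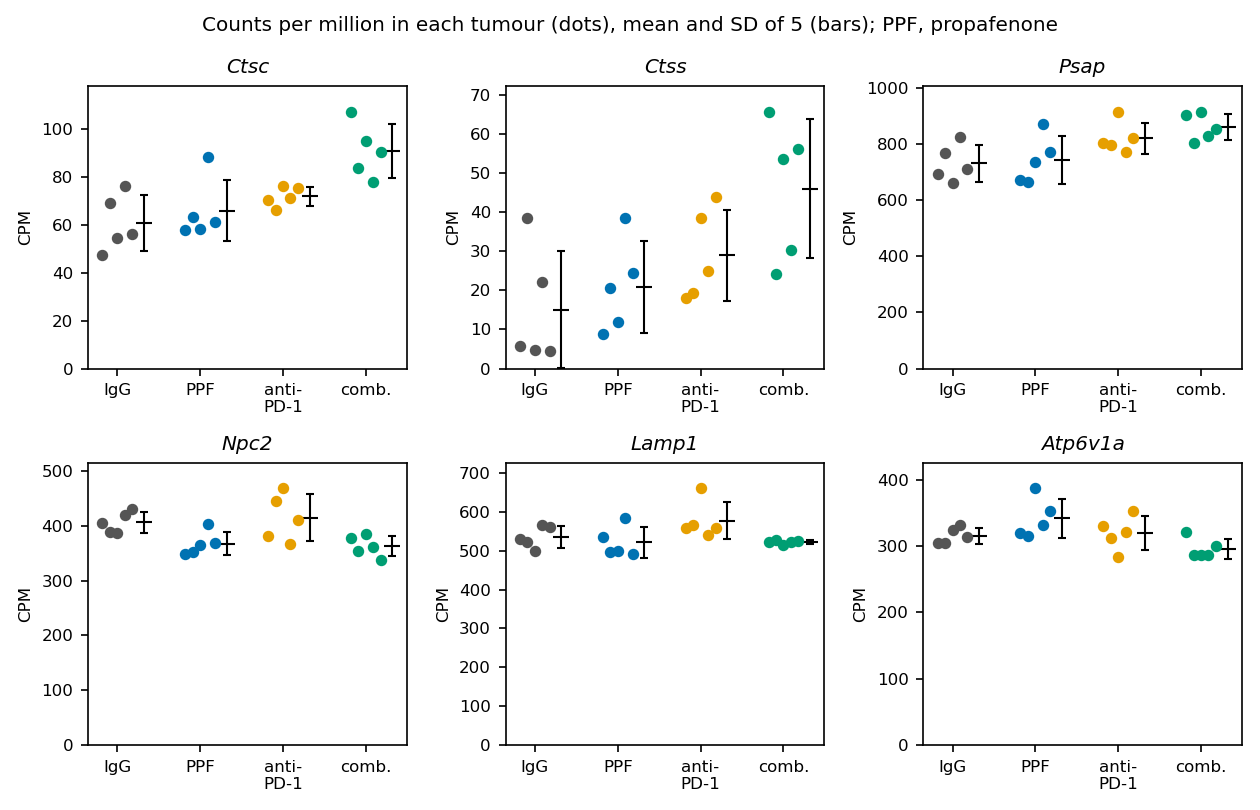
CPM of 6 genes (y axis, from 0) in each tumour of the 4 groups (dots), with the group mean and SD of 5 beside them. The combination dots of Ctsc lie above all IgG dots, those of Npc2 below all IgG dots, and the other 4 genes overlap between these groups.

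Among the other hydrolases no member passed against IgG. The tripeptidyl peptidase Tpp1 stood at 225, 218, 202, 268 and 223 CPM in the IgG tumours, 241, 209, 211, 281 and 184 with propafenone, 289.6, 242, 271, 263 and 263 with anti-PD-1 and 254, 274, 278, 272 and 246 with the combination. IgG 4 and propafenone 4 lay among the higher groups, and the combination change of 0.22 ± 0.0926 had an adjusted p of 0.151 (edgeR). Ctsa, the carboxypeptidase that protects neuraminidase, stood at 272, 272, 276, 264 and 235 CPM in the IgG tumours, 233, 206, 362, 247 and 331 with propafenone, 194, 299.7, 249.5, 188 and 253 with anti-PD-1 and 233, 200.2, 240.4, 198 and 191 with the combination. Levels were at or under 240.4 CPM in the combination, while propafenone 3 and 5 stood above 330 CPM, and the change against IgG was -0.31 ± 0.140 (adjusted p = 0.183, edgeR). Man2b1, an alpha-mannosidase, stood at 125, 106, 109.8, 122 and 128 CPM in the IgG tumours, 98.8, 108, 128, 128 and 121 with propafenone, 111, 140.5, 111, 97.9 and 121 with anti-PD-1 and 113, 95.8, 124, 94.4 and 98.4 with the combination. The groups overlapped throughout, with a change of -0.17 ± 0.101 (adjusted p = 0.330, edgeR). Asah1, acid ceramidase, stood at 120.0, 132, 124, 136 and 129 CPM in the IgG tumours, 123, 127, 159.7, 130.4 and 147 with propafenone, 120.3, 125, 163, 127 and 149.6 with anti-PD-1 and 132, 115, 127, 113 and 131 with the combination. Its highest tumours were propafenone 3 and anti-PD-1 3, and its change was -0.053 ± 0.0869 (adjusted p = 0.748, edgeR). Ctsb, cathepsin B, stood at 548, 715, 495, 667 and 582 CPM in the IgG tumours, 464, 501, 737, 652 and 734 with propafenone, 559, 668, 760.2, 528 and 714 with anti-PD-1 and 733, 601, 805, 589 and 646 with the combination. Each group spread over more than 100 CPM and overlapped every other (change 0.17 ± 0.139, adjusted p = 0.491, edgeR), and 12.8% of the exonic length of Ctsb overlaps Fdft1 in GENCODE vM21. Ctsd stood at 965, 1062, 932, 1266 and 1286 CPM in the IgG tumours, 967, 920.5, 1152, 1177 and 1082 with propafenone, 1298, 1603, 1411, 1179 and 1237 with anti-PD-1 and 1268, 1157, 1236, 1154 and 1099 with the combination. Anti-PD-1 2, at 1603 CPM, was the highest tumour, the combination change was 0.10 ± 0.0990 (adjusted p = 0.558, edgeR), and 34.4% of its exonic length is shared with Gm49369 on the same strand.

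Of the membrane, lipid-handling and regulatory genes Psap came nearest to the threshold. It stood at 694, 769, 661, 826 and 711 CPM in the IgG tumours, 674, 665, 739, 874 and 774 with propafenone, 804, 797, 914, 772 and 822 with anti-PD-1 and 905, 805, 917, 829.7 and 855 with the combination. The combination tumours overlapped only IgG 4, at 826 CPM, of the IgG group, and the change was 1.18-fold (0.24 ± 0.0764, edgeR adjusted p = 0.0728). The gene passed with library totals (0.31, adjusted p = 0.0334), with DESeq2 (0.26, 0.0276), without IgG 4 (0.31, 0.0370), without propafenone 4 (0.24, 0.0489) and without anti-PD-1 3 (0.26, 0.0499). Grn encodes progranulin, a lysosomal glycoprotein that binds prosaposin, and stood at 201, 268, 181, 261 and 223 CPM in the IgG tumours, 187, 196, 236, 274 and 218 with propafenone, 218, 260.1, 308, 213 and 242 with anti-PD-1 and 281, 238, 299.6, 235 and 233 with the combination. IgG 1 and IgG 3 were low beside IgG 2 and IgG 4, and the change of 0.18 ± 0.126 had an adjusted p of 0.390 (edgeR).

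Npc1 and Npc2 together carry cholesterol out of the lysosome, and neither passed. Npc1 stood at 124, 116, 123, 139 and 127 CPM in the IgG tumours, 132, 121, 137, 153 and 124 with propafenone, 150.4, 130.3, 117, 142 and 135 with anti-PD-1 and 142, 134, 141, 139.5 and 125 with the combination. All 4 groups overlapped, with a change of 0.12 ± 0.0741 (adjusted p = 0.352, edgeR). Npc2 stood at 405, 389, 387, 419 and 431 CPM in the IgG tumours, 349, 351, 365, 402 and 368 with propafenone, 382, 446, 468, 366 and 411 with anti-PD-1 and 377, 353, 384, 361 and 338 with the combination. Every combination tumour lay below every IgG tumour, by a log2 change of -0.16 ± 0.0662 (edgeR adjusted p = 0.142, not passed), and 4 of 5 propafenone tumours lay below the IgG range too.

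Lamp1, one of the most abundant glycoproteins of the lysosomal membrane, stood at 531, 521, 499, 566 and 560.1 CPM in the IgG tumours, 536, 497, 499, 584 and 490.4 with propafenone, 558, 567, 661, 541 and 559 with anti-PD-1 and 522, 528, 514, 523 and 526 with the combination. The 5 combination tumours spanned 514 to 528 CPM, all below the anti-PD-1 tumours and inside the IgG range (change against IgG -0.035 ± 0.0608, adjusted p = 0.762, edgeR). Scarb2, the receptor that brings glucocerebrosidase to lysosomes, stood at 79.8, 88.7, 84.6, 73.2 and 63.9 CPM in the IgG tumours, 73.6, 76.5, 106, 75.7 and 99.5 with propafenone, 73.8, 61.1, 79.5, 73 and 83.1 with anti-PD-1 and 77.3, 67.8, 71.7, 68.5 and 77.7 with the combination. Propafenone 3 and 5 were the highest tumours and anti-PD-1 2 the lowest, with a combination change of -0.10 ± 0.110 (adjusted p = 0.597, edgeR). The regulator Tfeb stood at 39.5, 63.6, 34.9, 46.4 and 43.8 CPM in the IgG tumours, 46.2, 41.5, 52.6, 52.2 and 49.4 with propafenone, 45.3, 53, 64, 43.8 and 43.6 with anti-PD-1 and 47.3, 49.5, 49.9, 37.7 and 42.3 with the combination. IgG 2 and anti-PD-1 3 were its highest tumours, and the combination change was -0.0099 ± 0.138 (adjusted p = 0.976, edgeR), with an interval of -0.30 to 0.28. Mcoln1, a calcium-releasing channel of the lysosome, stood at 20.5, 15.3, 19.9, 18.6 and 20.8 CPM in the IgG tumours, 17.4, 17, 18.2, 21.6 and 17.8 with propafenone, 21.9, 19.1, 17.9, 21.5 and 19.6 with anti-PD-1 and 17.4, 18.1, 22.4, 19.2 and 17.4 with the combination. No group of Mcoln1 left the range of 15.3 to 22.4 CPM (change -0.011 ± 0.101, adjusted p = 0.962, edgeR).

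In the V1 sector no subunit passed against IgG. Atp6v1a, the catalytic A subunit, stood at 304, 305, 324, 331 and 314 CPM in the IgG tumours, 320.0, 316, 387, 332 and 354 with propafenone, 329.9, 312, 284, 321 and 353 with anti-PD-1 and 321, 286, 287, 286 and 300.2 with the combination. Its combination tumours were at 286 to 321 CPM, and 4 of 5 lay below all IgG tumours (change -0.093 ± 0.0646, adjusted p = 0.398, edgeR). Atp6v1b2, the B subunit that alternates with it, stood at 291, 314, 285, 319 and 347 CPM in the IgG tumours, 273, 284, 321, 339.9 and 301 with propafenone, 315, 354, 429.9, 305 and 379.8 with anti-PD-1 and 308, 313, 319.5, 310.1 and 309 with the combination. Anti-PD-1 3 was the highest tumour and the combination level matched IgG within its spread (0.0044 ± 0.0831, adjusted p = 0.982, edgeR). Atp6v1f, of the central rotor, stood at 160.2, 193, 192, 189.7 and 199 CPM in the IgG tumours, 145, 150, 192, 163 and 193 with propafenone, 160.2, 237, 235, 149.5 and 186 with anti-PD-1 and 156, 151, 171, 154 and 142 with the combination. Combination tumours lay under all IgG tumours but IgG 1, with a change of -0.27 ± 0.117 (adjusted p = 0.165, edgeR). Atp6v1e1, of the peripheral stalk, stood at 352, 366, 319, 364 and 346 CPM in the IgG tumours, 358, 332, 339, 321 and 329 with propafenone, 364, 391, 325, 344 and 356 with anti-PD-1 and 337, 315, 328, 339.5 and 320.4 with the combination. Its groups overlapped and its change was -0.091 ± 0.0551 (adjusted p = 0.326, edgeR). Atp6v1g1, the stalk partner of the E subunit, stood at 213, 224, 229, 288 and 265 CPM in the IgG tumours, 231, 236, 249.8, 256 and 235 with propafenone, 278, 318, 268, 270.4 and 267 with anti-PD-1 and 264, 269, 263, 264 and 247 with the combination. IgG 4 and 5 lay with the treated tumours and IgG 1 to 3 below them (change 0.10 ± 0.0735, adjusted p = 0.410, edgeR). Atp6v1c1, the C subunit that joins stalk and membrane sector, stood at 173, 175, 161, 207 and 201 CPM in the IgG tumours, 205, 189, 176, 199 and 169 with propafenone, 198, 204, 169.9, 198 and 185 with anti-PD-1 and 182, 201, 188, 185 and 200 with the combination. Its combination change was 0.062 ± 0.0741 (adjusted p = 0.645, edgeR), and its groups overlapped. The other V1 genes, Atp6v1d and Atp6v1h, had changes of -0.062 ± 0.0665 and -0.10 ± 0.0863.

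In the V0 sector no subunit passed either, and 5 of 7 had a change below 0 in the count fit. Atp6v0c, which forms the proton-carrying ring, stood at 790.2, 827, 761, 934 and 941 CPM in the IgG tumours, 704, 662, 759, 878 and 725 with propafenone, 812, 1046, 1099, 785 and 739.5 with anti-PD-1 and 709, 782, 777, 721 and 700.5 with the combination. Anti-PD-1 2 and 3 were highest and the change in the combination was -0.20 ± 0.102 (adjusted p = 0.232, edgeR). Atp6v0b, another ring subunit, stood at 148, 147, 152, 181 and 209 CPM in the IgG tumours, 153, 142, 146, 195 and 145 with propafenone, 187, 258, 191, 169 and 169 with anti-PD-1 and 176, 176, 190.1, 168 and 163 with the combination. Anti-PD-1 2 stood apart at 258 CPM, and the combination change was 0.062 ± 0.119 (adjusted p = 0.787, edgeR). Atp6v0d1, which couples rotor and ring, stood at 196, 180.1, 197, 225 and 245 CPM in the IgG tumours, 182, 167, 184, 228 and 172 with propafenone, 209.9, 257, 231, 196 and 200.3 with anti-PD-1 and 188, 198, 203, 187 and 180.4 with the combination. IgG 4 and 5 lay above every combination tumour and IgG 1 to 3 at 180.1 to 197 CPM (-0.12 ± 0.0940, adjusted p = 0.440, edgeR). Atp6v0e, a small membrane subunit, stood at 88.9, 90.9, 95.5, 102 and 112 CPM in the IgG tumours, 88.1, 85.2, 92.7, 95.4 and 90.0 with propafenone, 99.9, 122, 103, 92.9 and 91.7 with anti-PD-1 and 89.1, 89, 91.4, 86.8 and 81.4 with the combination. Its combination tumours lay at or under 91.4 CPM, overlapping IgG 1 and 2 (-0.16 ± 0.0761, adjusted p = 0.210, edgeR). Atp6ap2, the accessory protein also known as the prorenin receptor, stood at 129.9, 141, 124, 135 and 122 CPM in the IgG tumours, 133, 131, 143, 125 and 139 with propafenone, 144, 114, 146, 136 and 137 with anti-PD-1 and 134, 126, 136, 130.1 and 140.1 with the combination. Its groups overlapped, with a change of 0.030 ± 0.0652 (adjusted p = 0.814, edgeR). The other 2 genes, Atp6v0a1 and Atp6ap1, had changes of -0.087 ± 0.0938 and -0.085 ± 0.0669.

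When the combination was set against anti-PD-1 alone, values of the pump genes lay on the lower side and none of the 44 passed by edgeR, DESeq2 or limma on TPM. Changes were below 0 for all 7 V0 genes (median -0.16), 7 of 8 V1 genes (median -0.12) and 7 of 10 membrane genes (median -0.068), while 10 of 19 hydrolases were above 0 (median 0.021). With library totals 6 of 7 V0 and 5 of 10 membrane genes were below 0, and the V0 median was -0.092. Percent called over all genes was 0, and DESeq2 called 7 genes. Unadjusted, 8 of 44 (18.2%) were lower with a p under 0.05 against 6.16% of all genes, and 1, Ctsc, was higher, against 3.62%. The 3 smallest p-values were those of Npc2 (-0.19 ± 0.0662), Atp6v0e (-0.22 ± 0.0761) and the regulatory subunit Atp6v1h (-0.24 ± 0.0864), each with an adjusted p of 0.446 (edgeR). The groups did not overlap for 4 of 44 genes (9.09%, against 2.37% of all genes): Ctsc was higher, and Atp6v0e, Lamp1 and Atp6v1d were lower. A change above 0 was found for 14 of 44 genes against 47.9% of all genes. The median over the 44 was -0.11, and -0.057 without anti-PD-1 3. On the TPM scale the direction of the 44 as a set was not kept: 23 of 44 genes were above 0, against 69.7% of all genes, and the median was 0.0056. Among the pump genes, mean TPM was still lower in the combination than with anti-PD-1, as for Atp6v0c (1344 against 1529). The exceptions were Atp6v1c1, Atp6v1g1, Atp6ap1 and Atp6ap2, which were higher.

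Against propafenone alone the combination again called Ctsc and no other member. Over all genes 616 passed (3.88%, and 1.67% higher), and 1 of 44 is 2.27%. The next smallest p-values belonged to Atp6v1a, with a change of -0.21 ± 0.0646 (adjusted p = 0.0678, edgeR), and Ctsz, with 0.22 ± 0.0742 (adjusted p = 0.0905, edgeR). Ctsz passed with library totals, with DESeq2 and on the TPM scale. Leaving out propafenone 4 raised the calls over the whole table, from 616 to 1882 genes. Among the 44 it gave 6 calls (Gusb, Tpp1, Ctsz, Hexa, Ctsc and Psap), so the rise was not confined to them. The interval lay within 1.5-fold for 39 of 44 genes, against 54.6% of all genes, and 0 of 44 genes had groups without overlap, against 8.52% of all genes. Anti-PD-1, propafenone and the combination share the IgG tumours as their control, and comparisons with the combination share its tumours.

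The interaction asks whether the combination differed from the sum of the single log2 changes. None of the 44 passed by edgeR, DESeq2 or limma on TPM, and percent called over all genes was 0 (2 genes by DESeq2). Unadjusted there was 1, Atp6v1a (-0.23 ± 0.0913), which is 2.27% of the 44 against 3.04% of all genes. Asah1 (-0.25 ± 0.123) and Atp6v1d (-0.18 ± 0.0940) came next, and all 3 had an adjusted p of 0.990 (edgeR). Estimates were above 0 for 11 of 44 genes, against 48.3% of all genes, and below 0 for the rest, including all 8 V1 and all 7 V0 genes under the 3 scalings, with a median of -0.068 beside -0.0097 over all genes. The intervals allowed more here: 36 of 44 lay within 1.5-fold, against 48.4% of all genes.

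Within groups, the genes that passed with macrophage markers were not those that passed with melanocyte markers. Each gene's log2 CPM and the mean log2 level of each marker list were centred on their group means, and correlated over the 20 tumours, with p-values from permutation within groups. Before group means were removed, the macrophage level ran from -1.99 to 0.326 in IgG tumours and -1.31 to 0.490 with propafenone. It ran from -0.185 to 0.575 with anti-PD-1 and 0.548 to 1.60 with the combination. Groups with a wider spread weigh more in r. There were 88 relations in all, adjusted by Benjamini-Hochberg. Of the 44 genes, 41 had a positive r with macrophage markers and 5 passed. The matching shares over all genes were not computed for either marker list. The counts therefore describe the 44 and cannot be called particular to them. Ctss gave Pearson's r = 0.949 (permutation p = 3e-05, adjusted 0.00264) and Spearman's rho = 0.917 (p = 7e-05, adjusted 0.00235). For Ctsc the values were Pearson's r = 0.838 (permutation p = 0.000120, adjusted 0.00411) and Spearman's rho = 0.826 (p = 8e-05, adjusted 0.00235). Psap followed with Pearson's r = 0.742 (permutation p = 0.00120, adjusted 0.0176) and Spearman's rho = 0.725 (p = 0.00325, adjusted 0.0349). The asparaginyl protease Lgmn had Pearson's r = 0.738 (permutation p = 0.00137, adjusted 0.0176) and Spearman's rho = 0.689 (p = 0.00364, adjusted 0.0349). Grn had Pearson's r = 0.719 (permutation p = 0.00198, adjusted 0.0194) and Spearman's rho = 0.671 (p = 0.00397, adjusted 0.0349). Without the 2 tumours farthest from the median marker level, r was 0.939, 0.785, 0.700, 0.673 and 0.649 for these 5 in turn. Group means were not taken anew after leaving them out. The remaining values therefore still carry those 2 tumours, and these r do not show independence from them. Median r by role was 0.348 for hydrolases, 0.311 for membrane genes, 0.228 for V1 and 0.154 for V0. The points share a library and so its depth and scaling.

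With melanocyte markers other genes passed. Hexa gave Pearson's r = 0.891 (permutation p = 0.000140, adjusted 0.00411) and Spearman's rho = 0.887 (p = 7e-05, adjusted 0.00235). The beta-glucuronidase Gusb had Pearson's r = 0.811 (permutation p = 0.00141, adjusted 0.0176) and Spearman's rho = 0.765 (p = 0.00269, adjusted 0.0349). Atp6v1c1 had Pearson's r = 0.806 (permutation p = 0.000970, adjusted 0.0176) and Spearman's rho = 0.761 (p = 0.00259, adjusted 0.0349). All 3 tended to be higher where the pigment markers were higher. Hexa was highest of its group in IgG 4 and 5 (332 and 355 CPM), propafenone 4 (384 CPM) and anti-PD-1 2 (449 CPM). Those libraries also had the highest melanocyte level of their groups and exceeded 1000 CPM of Hbb-bs. Propafenone 5, likewise above 1000 CPM of Hbb-bs, had the lowest Hexa of its group (164 CPM). The part of this in the relation was not tested. Npc1 had Pearson's r = 0.740 (permutation p = 0.00160, adjusted 0.0176) and Spearman's rho = 0.708 (p = 0.00162, adjusted 0.0349). Scarb2 went the other way, with Pearson's r = -0.709 (permutation p = 0.00368, adjusted 0.0324) and Spearman's rho = -0.726 (p = 0.00318, adjusted 0.0349). Leaving out the 2 farthest tumours gave 0.932, 0.823, 0.782, 0.582 and -0.710, again with group means that included them. No gene passed with both lists, but the difference between a gene's 2 correlations was not tested. Smpd1, for example, passed with neither and had r = 0.421 with macrophage and 0.641 with melanocyte markers.

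**Figure D4:**
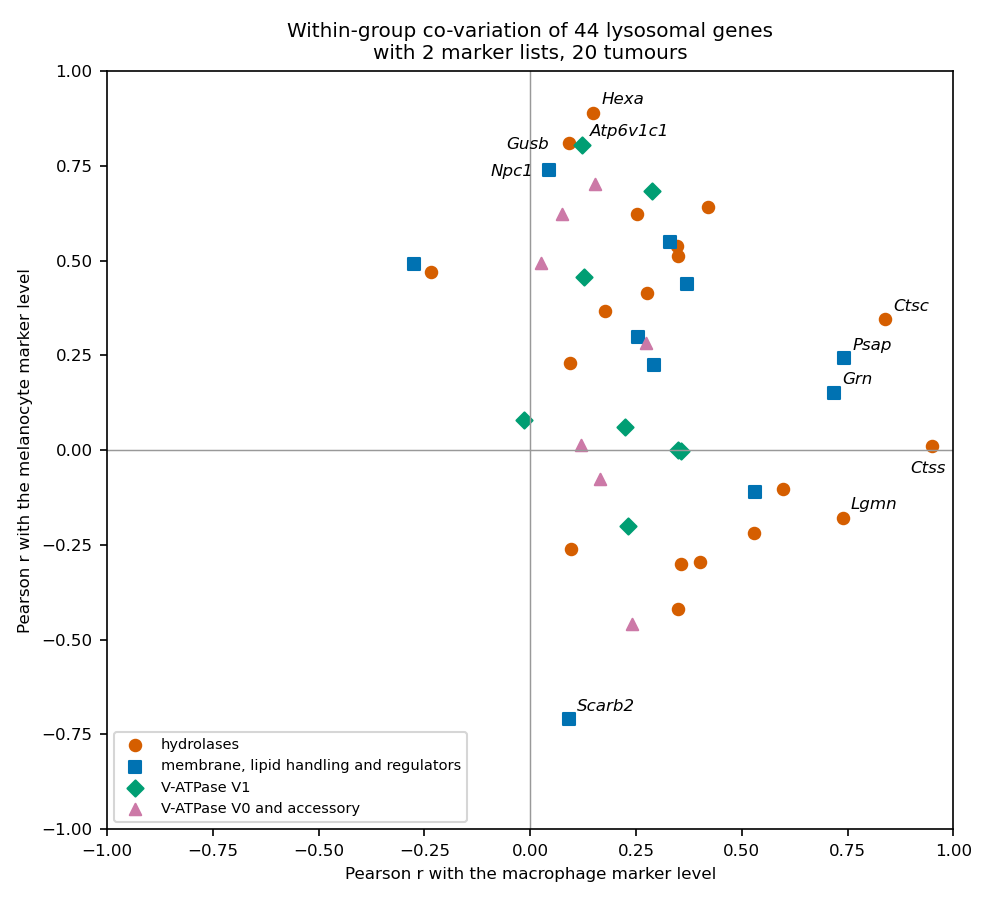
Pearson r of each gene with the macrophage level (x axis) and with the melanocyte level (y axis) over 20 tumours after removing group means, coloured by role. The 10 genes that passed with 1 of the lists are named: Ctss, Ctsc, Psap, Lgmn and Grn lie to the right, Hexa, Gusb, Atp6v1c1 and Npc1 at the top and Scarb2 at the bottom.

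**Figure D5:**
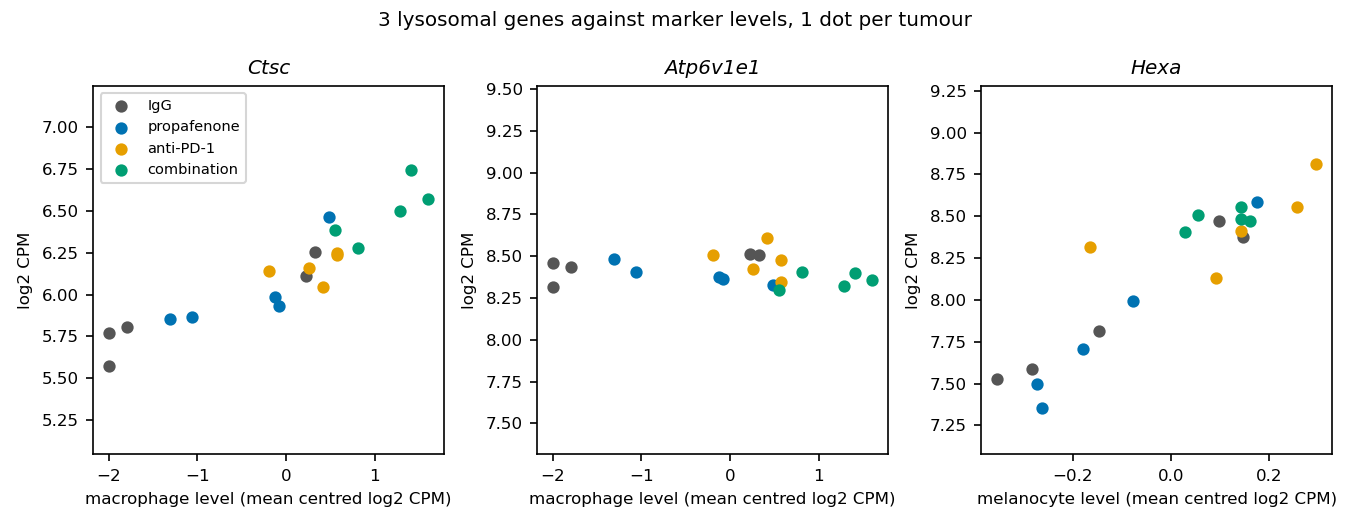
Log2 CPM of Ctsc and Atp6v1e1 against the macrophage level and of Hexa against the melanocyte level, 1 dot per tumour coloured by group, before group means were removed, with y axes of equal span. Ctsc and Hexa climb along their marker level, and Atp6v1e1 stays between 8.3 and 8.61.

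Other genes of the pathway, from lists that do not hold the 44, gave calls at about the share of all genes. In the combination against IgG 4 of 114 were called (3.51%, beside 4.88% of all genes), 2 in each direction. Of 30 further hydrolases and cofactors 1 rose, Naaa, an acid amidase of lipid amides (0.81 ± 0.172, edgeR adjusted p = 0.0200), and 13 of 30 had a positive change, beside 48.2% of all genes. That count was 15 with DESeq2 size factors and 18 with library totals, where the median turned from -0.019 to 0.0044 and 0.051. Naaa stood at 8.46, 9.89, 6.39, 10.6 and 7.39 CPM in the IgG tumours, 6.73, 11.5, 8.19, 11.3 and 9.19 with propafenone, 7.94, 8.13, 10.1, 8.54 and 9.7 with anti-PD-1 and 14.2, 11.1, 19.4, 13.3 and 17.1 with the combination. The combination tumours lay above all IgG tumours, and combination 3 was the highest. None of 22 further membrane and sorting genes, 7 tested V-ATPase subunits and 12 sterol genes passed. Of 23 genes of pump assembly and mTORC1 nutrient sensing, Tfec, a relative of Tfeb, rose (1.38 ± 0.395, adjusted p = 0.0483, edgeR) from a low level of 0.147 to 0.484 CPM in IgG tumours. Tsc2, a brake on mTORC1, fell (-0.24 ± 0.0605, adjusted p = 0.0304, edgeR). With DESeq2 size factors Tfec was not called (adjusted p = 0.0529, edgeR), with library totals neither was (0.0528 for Tfec and 0.0682 for Tsc2), and without the 5 Hbb-bs-rich libraries neither was (0.109 and 0.118). Tsc2 was not called on log2(TPM + 1) either (0.449, limma). Of 20 autophagy genes and TFEB targets outside the lysosome, Atg9a, which supplies membrane to autophagosomes, fell (-0.40 ± 0.0850, adjusted p = 0.0200, edgeR), and 17 of 20 had a negative change (median -0.067). The list's direction turned with the scale: 6 of 20 were above 0 with DESeq2 size factors, but 11 of 20 with library totals (median 0.0044) and 12 of 20 on log2(TPM + 1). Atg9a stood at 174, 132, 158, 144 and 157 CPM in the IgG tumours, 133, 127, 152, 132 and 130.3 with propafenone, 112, 153, 132, 115 and 133 with anti-PD-1 and 113, 116, 124, 118 and 107 with the combination. All 5 combination tumours lay below all 5 IgG tumours. Against propafenone 6 of 114 were called (5.26%, beside 3.88% of all genes). Naaa (0.68 ± 0.171), Tfec (1.47 ± 0.396) and Cln3 (0.53 ± 0.147) rose in the combination, and Vps35 (-0.23 ± 0.0589), Vps11 (-0.50 ± 0.133) and Stard4 (-0.55 ± 0.146) fell. The 3 lower calls were lost with DESeq2 size factors (adjusted p = 0.0507, 0.0510 and 0.0507 for Vps35, Vps11 and Stard4, edgeR), with library totals (0.104, 0.0720 and 0.0802) and on log2(TPM + 1) with limma (0.187, 0.0605 and 0.112). Tfec was not called with library totals (0.0530), while Naaa and Cln3 passed in all these fits. The other 4 comparisons gave 0 calls in these lists by edgeR, where percent called over all genes was 0.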

How the data were processed

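Bulk RNA libraries were made from 20 tumours with a SMARTER mRNA kit, per the labels' protocols. Per the submitters' processing notes, FastQC, HISAT2 (version 2.2.1) and SAMtools (version 1.9) were used, with mm10 (GRCm38) as the build. Which tool counted reads, with which annotation and strand setting, was not given in the sources used here, so reads of overlapping genes cannot be told apart. The deposited expected counts are whole numbers per gene, not scaled by the authors to a common total. The number of counts per fragment could not be settled. TPM in the other deposited table were computed by the authors and used for levels between genes and for alternative fits.

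The test was the quasi-likelihood test of edgeR 4.0.16 in R 4.3.3 (TMM, robust, 1 mean per group, 16 residual degrees of freedom). Filtering with filterByExpr left 15875 genes with 99.98% of the counts. A gene was called at a Benjamini-Hochberg adjusted p under 0.05 over all of them. The standard error is the size of the log2 change divided by the square root of F, and 95% intervals use the moderated degrees of freedom. CPM uses TMM-scaled library sizes. The interaction is the combination change minus the sum of the 2 single changes. The fit was run on simulated counts, drawn independently for each gene and library. These hold no shared differences in tumour composition, so they cannot show how the fit behaves under them. Alternatives were other scalings, no low-count filter, DESeq2 1.42.0, limma 3.58.1 on log2(TPM + 1) and log2(TPM + 0.1), a replicate block, and leaving out each library. A fit without the 5 libraries in which Hbb-bs exceeded 1000 CPM was chosen after seeing the data.

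Named in each comparison are the called genes or, where fewer than 3 were called, the 3 with the smallest p. Values per tumour are given for the 3 smallest p in each direction and role in the combination against IgG, and for Lamp1, Ctsb, Ctsd, Atp6v1a, Tfeb, Mcoln1 and Npc1. The genes, gene lists and marker lists were chosen with earlier results of these data known. Other genes named for their overlap, interval or correlation were chosen after their values were seen. The labels state no pairing of tumours by replicate number, and the main fit used none. No 2 libraries were identical, and within-group correlations of log2 CPM ran from 0.949 to 0.982. Correlations used scipy 1.17.1 and numpy 2.4.6 with 100000 permutations within groups. Coordinates are from GENCODE vM21 on GRCm38, which matched all 44 identifiers, and promoter sequences from RefSeq on GRCm38.p6.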

Additional observations from a re-analysis of the deposited data

Results flagged for a closer look

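For the genes with values per tumour, 108 groups of 5 were searched for a tumour whose gap to its nearest neighbour exceeded 0.71 of the group's range. For normally distributed values chance alone gives such a gap in about 1 in 20 groups, and 10 were found. The 108 groups come from the same 20 tumours and are not independent, so no excess can be read from the 10. Propafenone 4 was high in its group for Ctsc (88.1 CPM), Atp6v0b (195 CPM), Atp6v0d1 (228 CPM) and Mcoln1 (21.6 CPM). Anti-PD-1 2 was high for Atp6v1g1 (318 CPM) and Atp6v0b (258 CPM). Both are among the libraries above 1000 CPM of Hbb-bs, at 1015 and 1526 CPM, and the part of this in the values was not tested. Anti-PD-1 3 was high for Lamp1 (661 CPM). Keratinocyte markers summed to 82.9 CPM in that tumour and to at most 4.59 CPM in the other anti-PD-1 tumours, and their part in the value was not tested. IgG 5 was low for Ctsa (235 CPM), IgG 1 for Atp6v1f (160.2 CPM) and combination 5 for Atp6v1g1 (247 CPM).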

How the results depend on the processing

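No result changed sign from a called value under the alternatives run. Beside 1 call among the 44 genes in the combination against IgG, library totals and DESeq2 each gave 2 (Ctsc and Psap), both TPM fits gave 6, leaving out the 5 libraries rich in Hbb-bs gave 8, and leaving out single tumours gave 0 to 2. It was 0 without IgG 1, IgG 3, IgG 5, combination 1 or combination 5, and 2 without IgG 2, IgG 4, propafenone 4 or anti-PD-1 3. Beside 1 call in the combination against propafenone, library totals gave 2, no low-count filter 0 (Ctsc, adjusted p = 0.0546, edgeR), DESeq2 3, both TPM fits 3, the Hbb-bs setting 7 and single left-out tumours 0 to 6. The Hbb-bs setting gave 1 call with anti-PD-1 (Hexa), beside 13 over all genes. The other lysosomal lists gave 4 calls, then 2 with library totals, 2 with no low-count filter, 8 with DESeq2, 10 and 10 on TPM, 8 in the Hbb-bs setting and 0 to 7 without single tumours. The median change of the 44 genes on TPM was 0.12 (pseudocount 1) and 0.13 (pseudocount 0.1) in the combination against IgG (0.011 in the count fit). Against anti-PD-1 it was 0.0056 and 0.0057 (-0.11 in the count fit). The causes were not tested.

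Calls over all genes in the combination against IgG were 774, then 480 with library totals, 463 with no low-count filter, 1423 with DESeq2, 1053 and 914 on TPM (pseudocounts 1 and 0.1; 6.63% and 5.76%), 977 in the Hbb-bs setting (6.03%) and 5 (without IgG 3) to 1067 (without anti-PD-1 2) when single tumours were left out. Against propafenone they were 616, then 347, 335 and 1466, 775 and 561 on TPM, 1142 in the Hbb-bs setting (7.05%), and 4 (without propafenone 3) to 1882 (without propafenone 4).

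Same-numbered tumours did not deviate together on average (30 pairs, mean r -0.0078, range -0.387 to 0.335). Still, 7 of 20 tumours correlated best with their own number, and the count from chance was not computed. Numbers 4 and 5 were rich in Hbb-bs in both the IgG and the propafenone group. With the replicate block 1 gene of the 44 was called in the combination against IgG (Ctsc, 0.60, adjusted p = 0.0221, edgeR) and 1 against propafenone (0.48, adjusted p = 0.0468, edgeR). It gave 4 calls in the other lysosomal lists and moved no such count by over 1.5 times.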

Other observations

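Across the 44 genes the change in the combination against IgG had a Spearman rho of -0.167 with exonic length, against 0.083 over 15871 genes with a length. For propafenone the values were 0.202 and 0.166, and for anti-PD-1 -0.28 and -0.0052. These are correlations across genes, which are not independent replicates, and they are given as a description.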
